A study of Mus musculus with 3 samples.

Results

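Contacts of the Ptch1 promoter were compared between the posterior and the anterior part of the mouse forelimb, which are 2 of the 3 libraries of the series. Both were taken at stage E11.5 (44 to 45 somites) from the forelimbs of 20 embryos, each limb being divided into a posterior and an anterior part. The third library, from telencephalic vesicles processed alongside as a control tissue, is given beside them as values. No genetic change or treatment is named for any group. The embryos' strain and the line of division of the limbs were not given in the sources used here. For each tissue there was 1 library, made from pooled dissected tissue, so there is no replicate behind any value, and neither SD nor p-value is given. A difference between the parts cannot be told apart from a difference between these libraries. Since tissue was dissected and not sorted, a contact made more often per cell cannot be told apart from one made in a larger share of the cells.

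In 4C-seq (chromosome conformation capture in its circular form, read by sequencing), nuclei are fixed, chromatin is cut and ligated, and fragments joined to a chosen fragment, the viewpoint, are amplified and sequenced. Ptch1 encodes Patched1, the receptor that binds Hedgehog ligands and holds Smoothened inactive, and it is itself a transcriptional target of the pathway through the GLI factors. In the limb bud, Sonic hedgehog is made by cells at the posterior margin, so that posterior mesenchyme receives more ligand than anterior mesenchyme. Ptch1 transcription is for that reason used as a readout of the response, and the comparison of limb parts asks whether its promoter also has different contacts in them.

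As viewpoint served the NlaIII fragment, 1163 bp long, at chr13:63667995-63669157 (mm9). The sequences below show both of its ends and its 1 DpnII site, the cuts that bound and divide this fragment. They are read from the plus strand, with the restriction site in capitals.
Lower-coordinate end, chr13:63667995-63668054: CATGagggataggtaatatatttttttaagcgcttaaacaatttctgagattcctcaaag
DpnII site, chr13:63668467-63668526: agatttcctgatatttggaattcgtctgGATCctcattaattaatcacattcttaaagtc
Higher-coordinate end, chr13:63669098-63669157: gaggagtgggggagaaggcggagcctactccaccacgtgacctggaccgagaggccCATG
Distances are counted from the labelled viewpoint position, 63,669,139, which is 18 bases from the higher-coordinate end. Ptch1 lies on the minus strand, at 63,610,261 to 63,674,474. Negative distances therefore run along the gene and on into Fancc, and are called the gene-body side. Positive distances run through an intergenic stretch toward Ercc6l2 and are called the upstream side. Exons are numbered in the annotated transcript with 23 exons, whose first exon starts 2.31 kb from the viewpoint on the gene-body side.

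For each library the deposited signal was read at 1001 positions, 1 kb apart, and in 48 window widths of 2 to 49 kb. Each window gave 3 quantities, treated as running median, upper quantile and lower quantile. The upper quantile follows the strongest fragments of a window, the lower quantile the weakest. Depth is unknown. Most windows stood on a few repeated levels. In 5 kb windows 91.7% of posterior and 93.7% of anterior running medians took one of 2 values, 0.0259 or 0.0269 in posterior limb and 0.0264 or 0.0276 in anterior limb, and at 899 of 996 positions (90.3%) both parts did so together. The origin of these levels, measured or set by the processing, was not given in the sources used here. Any fold whose lower member sits at one of them therefore depends on that level. Medians over all positions gave a posterior over anterior ratio of 0.984 for the running median and 0.974 for the upper quantile. In posterior limb the upper quantile took 192 distinct values, against 151 in anterior limb. The part of this difference between libraries in the results was not tested.

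**Figure D1:**
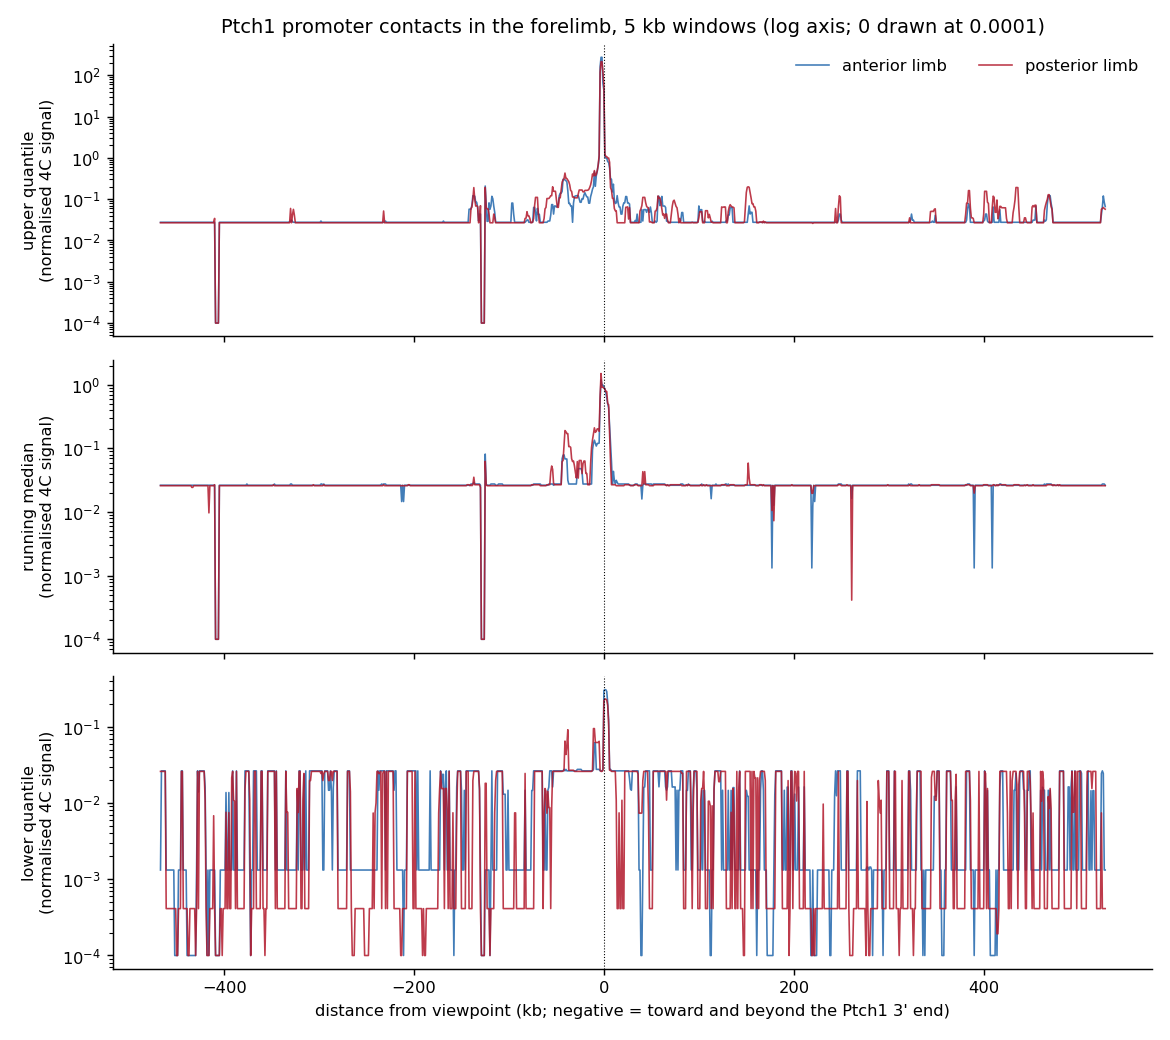
Upper quantile, running median and lower quantile (normalised 4C signal, log axis) at each position, in 5 kb windows, against distance from the viewpoint in kb, for anterior limb (blue) and posterior limb (red). Both libraries run flat at repeated levels over most of the span, rise at the viewpoint, and part from each other in the gene body and, in the upper quantile, on the upstream side, while the lower quantile steps between a few levels.

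A position was called when one part was at least 2 times the other, after a small offset was added to both (0.000412 for the running median, 0.0259 for the upper and 0.000193 for the lower quantile, the smallest value above 0 of each in the limb libraries), and when the higher part was at or above its own median. The offset pulls folds toward 1. Posterior limb was higher at 17 positions in 5 kb running medians (1.71% of 996) and anterior limb at 2 (0.201%). Adjacent called positions made up 3 intervals, all of them higher in posterior limb and all inside Ptch1. With a larger offset of 0.01 only the longest, over exons 13 to 16, was still called, at 63,627,984 to 63,634,984. The intervals in introns 2 and 3 were not. For reference, posterior limb was the higher library against telencephalon at 24 positions and the lower at 5 as deposited, and at 12 and 7 with each profile scaled to its own median. Anterior limb was the higher library against telencephalon at 15 positions and the lower at 9 as deposited, and at 9 and 18 when scaled. These pairs share libraries with the limb comparison. Over all 48 widths 2.17% of the running medians were called for posterior limb and 0.32% for anterior limb, and with profiles scaled to their own medians these shares were 2.28% and 0.312%.

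**Figure D2:**
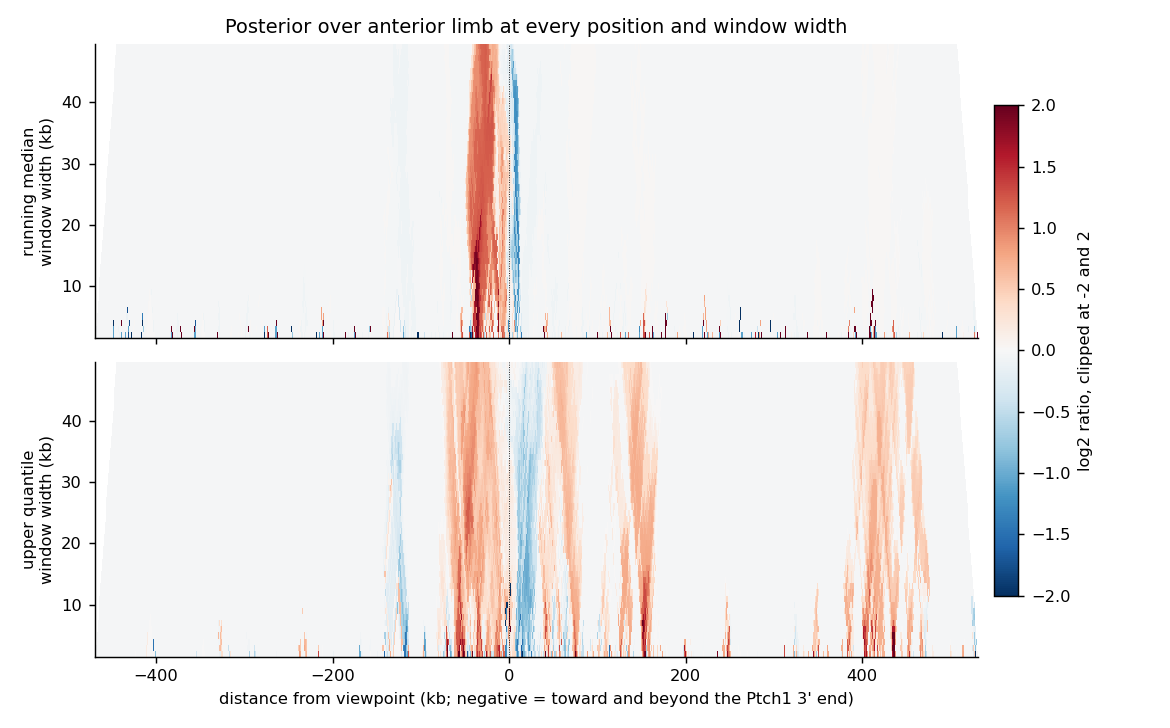
log2 of the posterior over the anterior limb signal (colour, clipped at -2 and 2; red, posterior higher) at every position (distance from the viewpoint, kb) and every window width (kb), for the running median and the upper quantile. A red column stands over the Ptch1 body at all widths, a blue one just upstream of the viewpoint, and in the upper quantile further red columns stand at 149.8 to 153.8 kb and beyond 400 kb upstream.

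The longest interval lay over exons 13 to 16 of Ptch1 and introns 12 to 16, at 63,627,984 to 63,636,984, 41.2 to 32.2 kb from the viewpoint. At its far end, at 63,627,984, the running median was 0.191 in posterior limb, 0.0681 in anterior limb and 0.0245 in telencephalon. At its middle, at 63,631,984, it was 0.107, 0.0276 and 0.0245, and at its near end, at 63,636,984, it was 0.0634, 0.0276 and 0.0245. Posterior limb thus declined along the interval toward the promoter, while anterior limb was above its repeated levels only over the 4 positions farthest from the promoter. Posterior limb averaged 0.123 over the interval and anterior limb 0.0402, a fold of 3.04 (2.23 to 5.34 at its 10 positions). The posterior running median lay above the anterior upper quantile at 6 of the 10, and the posterior lower quantile lay above the anterior running median at 1. The mean lower quantiles were 0.0417 and 0.0265.

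In the narrowest windows the order of the parts alternated just past the far end of this interval. In 2 kb windows 4.8% of running medians were called for posterior limb and 1.2% for anterior limb. Anterior limb was the higher part at 63,624,984 and 63,625,984, with 0.122 and 0.0782 against 0.0269 at both in posterior limb, a fold of 3.68. At the next position, 63,626,984, the order was turned, with 0.191 in posterior limb and 0.0276 in anterior limb. At 63,628,984, inside the interval in intron 15 beside exon 16, both were high, at 0.226 in posterior limb and 0.263 in anterior limb, and telencephalon was at 0.0245. From 63,630,984 to 63,637,984 anterior limb was nowhere above 0.0317, while posterior limb was between 0.0327 and 0.111. The position beside exon 16 was the 1 of the 10 in the interval at which anterior limb was the higher part, and the positions on either side of it had 0.108 and 0.199 in posterior limb against 0.0616 and 0.0684 in anterior limb. The fold of the whole interval was 1.97 in 2 kb windows.

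The same interval was followed through the other windows and quantities. With the running median its fold was 2 or more at 37 of 48 widths, with a highest value of 3.21 at 13 kb and a lowest of 1.83 at 48 kb. With the upper quantile it was between 1.3 and 1.72 at all 48 widths, and 1.59 in 5 kb windows, where the means were 0.238 in posterior and 0.140 in anterior limb. With the smaller offset of the running median, the upper-quantile fold in 5 kb windows was 1.7. The difference in the running median was thus larger than in the upper quantile. With the lower quantile the fold was 2 or more at 1 width, between 1 and 2 at 17 and below 1 at 30. It was 1.57 in 5 kb windows and lowest in 24 kb windows, at 0.984. With profiles scaled to their own medians the lower-quantile fold was 2 or more at 47 widths. Wide windows overlap one another and share fragments, so counts of widths are not independent observations. In wider windows the called stretches shifted. With windows of 20, 30 and 40 kb the shares called for posterior limb were 2.24%, 2.37% and 1.66%. In 20 kb windows the stretch from -43.2 to -26.2 kb was called with 0.0663 in posterior limb and 0.0276 in anterior limb, and in 30 kb windows a single stretch ran from -40.2 to -18.2 kb (0.0637 and 0.0278). In 40 kb windows there were again 2 stretches, from -38.2 to -36.2 kb and from -31.2 to -19.2 kb.

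The second interval, at 63,646,984 to 63,648,984 in intron 3, had running medians of 0.0581, 0.0634 and 0.0634 in posterior limb and 0.0276 at all 3 positions in anterior limb. Its fold was 2.22. Telencephalon was at 0.0779, 0.0777 and 0.0495, so that anterior limb was the lowest of the 3 libraries there. The third interval, at 63,654,984 to 63,655,984 in intron 2, had 0.0580 and 0.104 in posterior limb, 0.0276 at both positions in anterior limb, and 0.0662 and 0.0965 in telencephalon, with a fold of 2.91. In both of these intervals the posterior running median nowhere exceeded the anterior upper quantile. The intron 3 fold was 2 or more at 27 widths and stayed above 1 at all 48, and the intron 2 fold was 2 or more at 8 widths, none wider than 11 kb.

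**Figure D3:**
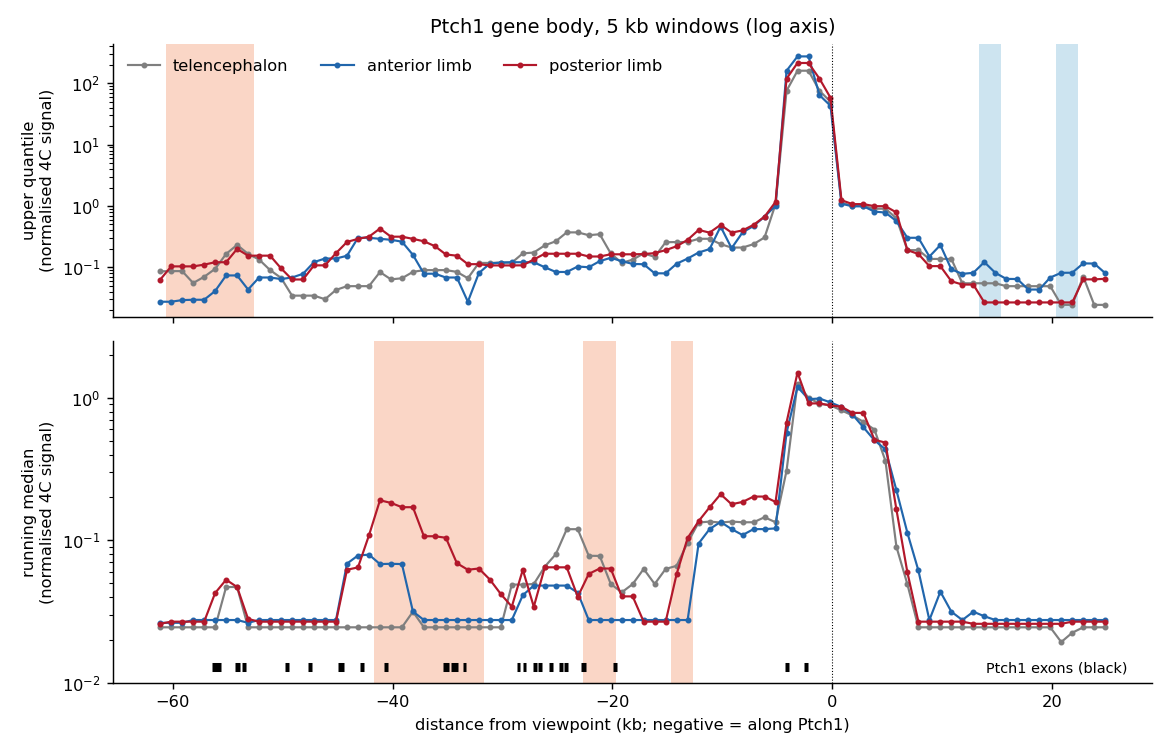
Upper quantile and running median (normalised 4C signal, log axis) at each position from -62 to 25 kb around the viewpoint, in 5 kb windows, for posterior limb (red), anterior limb (blue) and telencephalon (grey), with Ptch1 exons as black bars. Orange bands mark intervals with posterior over anterior limb and blue bands the opposite. Posterior limb stands above both other libraries over exons 13 to 16. In the orange bands of introns 2 and 3 the anterior running median is at its repeated level.

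Over the whole gene-body side at 10 to 50 kb the mean running median was 0.0771 in posterior limb, 0.0438 in anterior limb and 0.0517 in telencephalon. The posterior over anterior ratio was 1.76, it stayed above 1 at all 48 widths, and it ranged from 1.49 in 2 kb windows to 2.1 in 14 kb windows. The upper quantile gave 0.202 and 0.141, a ratio of 1.43 (1.39 to 1.72 over the widths). The lower quantile gave 0.0334 and 0.0275, a ratio of 1.21 that lay above 1 at 10 of 48 widths. With profiles scaled to their own medians the lower-quantile ratio was 3.89. At 2 times its own median stood 26 of the 40 positions in posterior limb, 9 in anterior limb and 20 in telencephalon.

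The upper quantile extended the posterior excess past the 3′ end of Ptch1. At 63,608,984 to 63,615,984, over exons 21 to 23, where the gene ends, its mean was 0.128 in posterior limb, 0.0436 in anterior limb and 0.120 in telencephalon. The fold of posterior over anterior was 2.21 (2.92 without the offset), and the running medians were 0.0348 and 0.0271. Here too anterior limb was the low library and the other 2 were alike in level. From the viewpoint outward the upper quantile stayed at 2 or more times its own median without a break for 62.2 kb on the gene-body side in posterior limb, 44.2 kb in telencephalon and 32.2 kb in anterior limb. For the running median these stretches were 14.2, 29.2 and 12.2 kb.

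From 5.84 kb upstream of the viewpoint the running medians had the opposite order. Nearer, at 0.845 to 4.84 kb, posterior limb was level with or above anterior limb, with ratios of 1 to 1.26. In the upper quantile posterior limb was still the higher part at 5.84 kb, at 0.784 against 0.568. Beside the most upstream annotated Ptch1 start, which lies 5.3 kb upstream, the running median at 5.84, 6.84 and 7.84 kb was 0.225, 0.113 and 0.0614 in anterior limb. Posterior limb stood at 0.165, 0.0595 and 0.0269 there, and telencephalon at 0.0901, 0.0491 and 0.0245. The running median thus stayed at 2 or more times its own median to 7.84 kb in anterior limb, against 6.84 kb in both other libraries. That difference is a single position. For the upper quantile telencephalon reached farthest, to 19.8 kb, with 16.8 kb in anterior limb and 10.8 kb in posterior limb. In the running median only the position at 7.84 kb passed the 2-fold rule, with 2.27. In windows of 20, 30 and 40 kb the positions at 8.85 to 9.85, 6.84 to 8.85 and 4.84 to 8.85 kb were called for anterior limb, with folds of 2.47, 2.32 and 2.27, where 0.306%, 0.309% and 0.52% of positions were called in this direction. Windows of these widths take in the viewpoint itself.

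The upper quantile carried this anterior excess farther. Over the 20 positions at 5 to 25 kb upstream, a range chosen after its values were seen, its mean was 0.139 in anterior limb, 0.0974 in posterior limb and 0.103 in telencephalon, and anterior limb was the higher limb part at 19, by 1.5 times or more at 16. Telencephalon was above posterior limb in the upper quantile at 15 of the 20. The running median of anterior limb was 1.5 times that of posterior limb or more at 3 of them. In 5 kb windows 2 intervals were called for anterior limb here. At 63,682,984 to 63,683,984 the upper quantile was 0.122 and 0.0816 in anterior limb, 0.0269 at both positions in posterior limb and 0.0551 at both in telencephalon. At 63,689,984 to 63,690,984 anterior limb was at 0.0816 and 0.0819, posterior limb at 0.0269 at both, and telencephalon at 0.0245 at both. The folds were 2.42 and 2.04, and after division by the medians 2.36 and 1.99. The first interval was at 2-fold or more at 4 widths and the second at 1, none above 5 kb. In 2 kb windows, where 5.51% of upper quantiles were called for posterior limb and 2% for anterior limb, the nearer of them was called from 12.8 to 14.8 kb, with 0.193 against 0.0269. At 10 to 50 kb upstream the ratio of mean upper quantiles, posterior over anterior, was 0.797 and below 1 at all 48 widths (0.724 to 0.917). The mean running median there was 0.0272 in both parts, a ratio of 1 (0.938 to 1.02 over the widths). Raised upper quantiles, at 2 or more times the own median, stood at 22 of the 40 positions in anterior limb, 14 in posterior limb and 13 in telencephalon.

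Within 10 kb of the viewpoint the parts were close in the mean in 5 kb windows, and the sides parted in wider ones. Over the 20 positions the running median averaged 0.479 in the posterior and 0.445 in the anterior library, a ratio of 1.08, with posterior limb higher at 12 positions and anterior limb at 8. Over the 48 widths the ratio ran from 0.931 to 1.47 on the gene-body side and lay above 1 at 40 of them. On the upstream side it ran from 0.581 in 41 kb windows to 1.08 and lay above 1 at 4. The upper quantile on the upstream side had ratios from 0.561 to 3.58, above 1 at 26 widths. The summit of the running median was at 63,665,984 in all 3 libraries, with 1.51 in posterior limb, 1.19 in anterior limb and 1.26 in telencephalon. At 5 positions, from -4.16 to -0.155 kb, the upper quantile rose above 10 in every library. At 63,665,984 it was 213.8 in posterior limb, 273.7 in anterior limb and 160.0 in telencephalon. These windows hold the viewpoint or border on it, and those at -3.15 to -1.16 kb had 16 to 18 fragment ends that are unique in the genome, against a median of 49. The mean upper quantile within 10 kb, 36.6 and 41.1, is set by them. Farther along the gene, at -8.15, -7.16 and -6.16 kb, the running median was 0.186, 0.203 and 0.203 in posterior limb and 0.109, 0.120 and 0.120 in anterior limb. In 2 kb windows this stretch was called, with 0.201 against 0.0913, a fold of 2.2. The lower quantile was there 0.0621 in posterior limb and 0.0276 in anterior limb. On the upstream side of the viewpoint, at 0.845, 1.84 and 2.85 kb, it was 0.305, 0.305 and 0.290 in anterior limb and 0.230, 0.230 and 0.223 in posterior limb, while from 5.84 kb on both parts were at repeated levels. Upper quantiles of 2 kb windows were called for anterior limb on the gene-body side, 5.16 to 4.16 kb away, with 99.2 against 42.3. They were also called for it at 8.85 to 9.85 kb upstream, with 0.208 against 0.0755. For posterior limb they were called 7.16 to 6.16 kb away on the gene-body side, with 0.353 against 0.142. In 10 kb windows anterior limb was called from -4.16 to -2.15 kb, with 9.18 against 2.13.

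In the upper quantile 32 positions were called for posterior limb (3.21%) and 8 for anterior limb (0.803%), in 6 and 4 intervals. Over all widths the shares were 0.863% and 0.179%. Of the posterior intervals, 4 lay upstream and outside any annotated protein-coding gene, and telencephalon was near its repeated level of 0.0245 in all of them. The nearest of these was at 63,741,984 to 63,742,984, where the upper quantile was 0.0893 and 0.0945 in posterior limb and 0.0276 at both positions in anterior limb. Its fold was 2.2, and it was 2 or more at 5 widths.

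The next was at 63,818,984 to 63,822,984, 149.8 to 153.8 kb upstream. Its upper quantile was 0.145, 0.194, 0.200, 0.194 and 0.145 in posterior limb and 0.0276, 0.0276, 0.0436, 0.0688 and 0.0436 in anterior limb. The fold was 2.96 with the offset and 4.16 without. It reached 3.33 in 7 kb windows, was 2 or more at 12 widths up to 13 kb, and was above 1 at all 48. At 63,820,984 the running median was called as well, with 0.0589 in posterior limb, 0.0264 in anterior limb and 0.0193 in telencephalon. In 2 kb windows the running median was called from 150.8 to 153.8 kb with 0.0559 against 0.0201.

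Beyond 400 kb upstream 2 further intervals were called with the upper quantile. At 64,069,984 to 64,071,984 it was 0.155 at all 3 positions in posterior limb and 0.0313, 0.0436 and 0.0436 in anterior limb, a fold of 2.77. At 64,101,984 to 64,104,984 it was 0.0960, 0.192, 0.191 and 0.191 in posterior limb and 0.0276 at all 4 positions in anterior limb, a fold of 3.61 with the offset and 6.07 without. In 5 kb windows the running median was at a repeated level in both intervals, 0.0269 in posterior limb and 0.0264 in anterior limb. The difference in these windows was thus in the upper quantile. In 2, 3 and 4 kb windows the running median at 64,101,984 to 64,104,984 differed too. It was 0.0414, 0.0415 and 0.0354 in posterior limb and 0.0264 throughout in anterior limb. Both upper-quantile folds were 2 or more at 6 widths, none above 7 kb.

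GLI factors are the transcription factors of Hedgehog signalling, and their consensus site GACCACCCA was searched on both strands as a description. It occurred 17 times in the span of the files. The upstream intervals at 149.8 to 153.8 kb and at 432.8 to 435.8 kb each held 1 match. Of all stretches of the same length in the span, stepped by 1 kb, 6.76% and 5.14% did. With 2500 bp added at each end, the reach of a 5 kb window, these shares were 14.3% and 12.8%. Of the posterior upper-quantile intervals outside those of the running median, the other 3 held 0. So did the 3 intervals of the running median and the 4 anterior ones. The posterior upper-quantile interval that overlaps a running-median interval was not searched on its own. The matches are shown with the 40 bases on either side, 5′ to 3′ on the strand of the motif, with the motif in capitals, beside the 3 that lie within 10 kb of the viewpoint.
At 151.9 kb upstream, plus strand, chr13:63821005-63821093: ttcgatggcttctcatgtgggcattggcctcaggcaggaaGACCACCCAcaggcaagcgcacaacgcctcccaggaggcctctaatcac
At 435.5 kb upstream, plus strand, chr13:64104579-64104667: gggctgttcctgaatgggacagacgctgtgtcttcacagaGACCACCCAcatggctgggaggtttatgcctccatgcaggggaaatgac
On the gene-body side of the viewpoint, plus strand, chr13:63667703-63667791: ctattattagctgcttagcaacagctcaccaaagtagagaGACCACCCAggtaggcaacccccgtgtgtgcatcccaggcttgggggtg
On the upstream side of the viewpoint, minus strand, chr13:63670553-63670641: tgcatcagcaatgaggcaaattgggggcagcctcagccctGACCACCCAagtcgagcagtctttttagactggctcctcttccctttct
Beside the most upstream Ptch1 start, minus strand, chr13:63674733-63674821: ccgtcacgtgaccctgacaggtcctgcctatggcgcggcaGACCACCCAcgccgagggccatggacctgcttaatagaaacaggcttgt
A match of these letters is not a measured binding site.

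**Figure D4:**
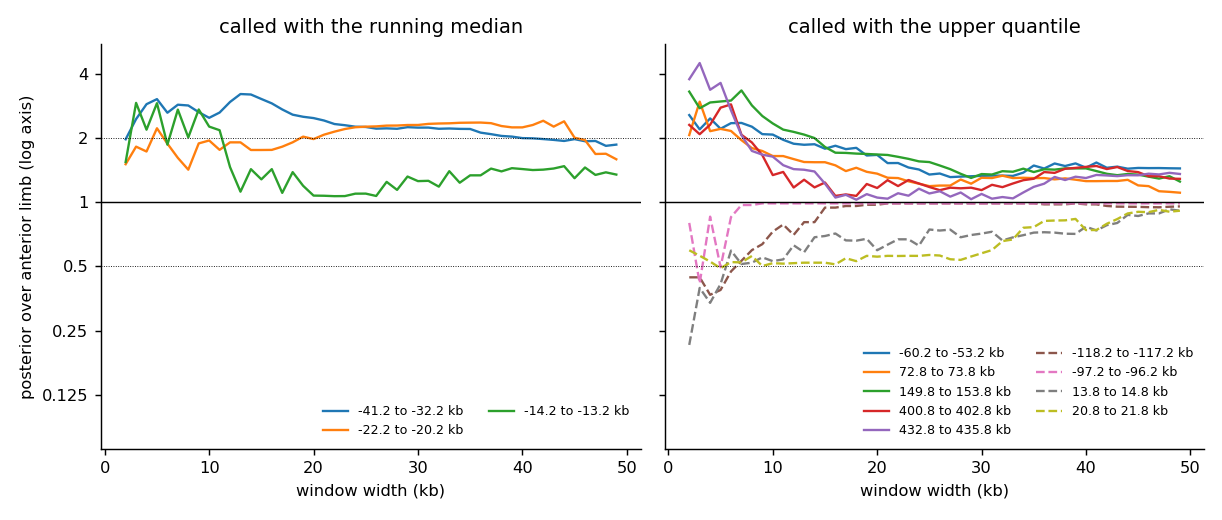
Posterior over anterior limb signal (log axis, with the offset) in each called interval against window width in kb, for intervals called with the running median (left) and with the upper quantile (right). Solid lines are intervals called for posterior limb and dashed lines those called for anterior limb, named by distance from the viewpoint. The gene-body interval at -41.2 to -32.2 kb stays near or above 2 through all widths. The solid lines of the upper quantile lie between 1.11 and 1.44 in 49 kb windows. The offset is 0.000412 on the left and 0.0259 on the right, so folds of the 2 panels are not on one scale.

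Far from the viewpoint, raised upper quantiles were more frequent in posterior limb on the upstream side. Beyond 100 kb upstream, raised upper quantiles stood at 74 of 428 positions in posterior limb (17.3%), 22 in anterior limb (5.14%) and 12 in telencephalon (2.8%). These include the positions beyond 400 kb given below, and neighbouring 5 kb windows overlap, so the counts are not independent observations. At 200 to 400 kb upstream raised upper quantiles stood at 11 of 200 positions in posterior limb, 3 in anterior limb and 5 in telencephalon. Beyond 100 kb on the gene-body side, which holds Fancc, a gene of the Fanconi anaemia DNA repair pathway, and Aopep, an aminopeptidase gene, they stood at 15, 18 and 18 of 368 positions. Upstream, 20 of the raised positions were shared by both limb parts, which is 90.9% of the anterior and 27% of the posterior ones. On the gene-body side 10 were shared, 55.6% and 66.7%.

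Beyond 400 kb upstream, past the end of Ercc6l2, in a stretch that includes Hsd17b3, 41 positions were raised in posterior limb (32%), 13 in anterior limb (10.2%) and 4 in telencephalon (3.12%), and all 13 anterior positions were raised in posterior limb too. The mean upper quantile was 0.0478, 0.0340 and 0.0257. Its posterior over anterior ratio was 1.41, and from 1.28 to 1.44 over the 48 widths. The ratio of the running median was 0.996. Posterior limb had 7 raised stretches there and anterior limb 2. The stretch from 466.8 to 471.8 kb was raised in both limb parts at nearly the same level, with 0.0951 in posterior limb and 0.0963 in anterior limb, and telencephalon stood at 0.0439. The stretch from 524.8 to 527.8 kb was higher in anterior limb, at 0.0842 against 0.0596. The other 5 posterior stretches, from 400.8 to 454.8 kb, were in posterior limb alone by this threshold, with means from 0.0633 to 0.133, while anterior limb was between 0.0276 and 0.0400. On the gene-body side beyond 400 kb 0 of 68 positions were raised in any library.

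**Figure D5:**
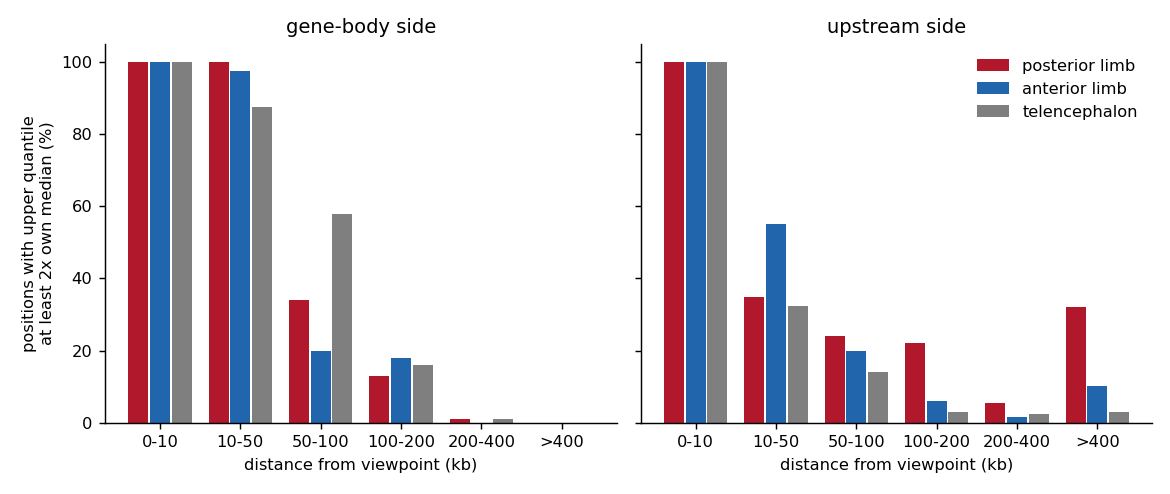
Share of positions (percent) whose upper quantile in 5 kb windows was at least 2 times the library's own median, by distance from the viewpoint in kb and by side, for posterior limb (red), anterior limb (blue) and telencephalon (grey). Beyond 400 kb upstream the share is 32% in posterior limb and 10.2% in anterior limb, while at 10 to 50 kb upstream anterior limb is the highest.

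Anterior limb also exceeded posterior limb in 2 intervals of the upper quantile inside the annotated span of Fancc. At 63,550,984 to 63,551,984, 118.2 to 117.2 kb away, it was 0.117 and 0.103 in anterior limb and 0.0269 at both positions in posterior limb, a fold of 2.58. The running medians, 0.0276 and 0.0259, were at repeated levels. At 63,571,984 to 63,572,984 it was 0.0805 at both positions against 0.0269, a fold of 2.02, or 1.96 after division by the medians. Telencephalon was at 0.0245 in the first and averaged 0.0280 in the second. The fold was 2 or more at 5 widths in the first and at 2 in the second, none above 6 kb.

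The starts of Fancc and Ercc6l2 stood apart in the upper quantile, while their running medians were at repeated levels. At the most upstream start of Fancc, -70.6 kb from the viewpoint, the upper quantile was 0.111 in posterior limb, 0.0600 in anterior limb and 0.0904 in telencephalon. At the Ercc6l2 start, 247.4 kb upstream of the viewpoint in a gene of the SNF2 helicase family, it was 0.121, 0.0435 and 0.0903. The running medians were 0.0269 in posterior limb and 0.0276 in anterior limb at both. In 2 kb windows both starts lay inside an interval called for posterior limb, with upper quantiles of 0.223 against 0.0629 at Fancc and 0.146 against 0.0370 at Ercc6l2. At the Hsd17b3 start, 521.4 kb upstream in a gene for a testosterone-forming enzyme, all quantities of both parts were at repeated levels.

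The lower quantile gave calls at a large share of positions in both directions, and its direction depended on scaling. As deposited, anterior limb was at least 2 times posterior limb at 459 positions (46.1%) and posterior limb at 162 (16.3%). With profiles scaled to their own medians these became 86 (8.63%) and 508 (51%). Over all widths the deposited shares were 53.2% and 17.3%. The medians themselves, 0.000412 in posterior limb and 0.00132 in anterior limb, were the most frequent values of the lower quantile, at 46.2% and 49.9% of positions. The intervals with the largest folds were steps between such levels. At 63,526,984 to 63,529,984 inside Fancc, anterior limb averaged 0.0263 and posterior limb 0.000412, a fold of 43.9, while the running medians were 0.0270 and 0.0264. At 64,185,984 to 64,186,984 in Hsd17b3 the fold was 17.3 the other way, with 0.0259 in posterior limb and 0.00132 in anterior limb. Near the viewpoint its direction depended on scaling too. Over the 10 kb upstream of the viewpoint the posterior over anterior ratio of its means was 0.815 as deposited and 2.61 when scaled. The lower quantile is given here as deposited, and no direction is read from it.

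Of the 4 single positions called with the running median, 2 have been given above, at 151.8 and 7.84 kb upstream. The others were steps between low levels. The position 64,077,984, 408.8 kb upstream, had a running median of 0.0259 in posterior limb, against 0.00132 in anterior limb, a fold of 15.2. At -416.2 kb, at 63,252,984, anterior limb was at 0.0264 and posterior limb at 0.0097. In these 2 cases the higher part was at its repeated level and the lower one below it.

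Across the 996 positions with 5 kb windows the log2 running medians of the limb parts had a Pearson r of 0.911 and a Spearman rho of 0.609, and the upper quantiles an r of 0.933 and a rho of 0.721. Positions overlap, share the decay from the viewpoint and sit largely on repeated levels, so these values describe the 2 libraries and have no p.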

How the data were processed

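Cells were fixed for 10 min in 2% formaldehyde, digested with NlaIII and ligated, then digested with DpnII, re-ligated and subjected to inverse PCR, per the labels' protocols. The authors deposited a normalised 4C signal per library on mm9 (build per the submitters' processing notes). Aligner, filters, normalisation factor, quantile levels and read totals were not given in the sources used here. These files have no header: widths and quantities were read from empty positions at the ends and from the order of the values (0 violations).

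Folds, intervals (2 or more adjacent called positions, runs parted by 1 joined), distance bins and counts were computed in Python 3.11.15 with NumPy 2.4.6, after the interval rule was tested on simulated profiles. The reference was NCBIM37, the assembly of mm9, with GENCODE M1. Gene symbols were updated through RefSeq synonyms. Unique fragment ends are NlaIII ends whose first 30 bases occur once in 211 reference sequences. Named intervals were all those called with the running median, those of the upper quantile outside them, and the 3 largest folds of the lower quantile in each direction, of which 2 are printed, with the summits within 10 kb of the viewpoint and the gene starts in the span. Positions and intervals of other widths, single called positions, raised stretches and GLI matches were named after their values were seen. The comparison, rules and alternatives were chosen with earlier results of these data known.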

Additional observations from a re-analysis of the deposited data

How the results depend on the processing

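No paired analysis was possible because there was 1 library per tissue, and no library could be left out. The main counts were 17 positions and 3 intervals for posterior limb, and 2 positions and 0 intervals for anterior limb. In 2 kb windows they were 48 and 6, and 12 and 1. In 10 kb windows anterior positions fell to 1, and in 20 kb windows anterior intervals rose to 1. The upper quantile gave 32 and 6, and 8 and 4, or, with the offset of the running median, 85 and 15, and 18 and 5. The lower quantile gave 162 and 32, and 459 and 58. An offset of 0.01 gave 10 and 1 for posterior limb and 0 anterior positions. The intervals in introns 2 and 3 were then no longer called, with folds of 2.42 and 1.91. A fold of 1.5 gave 35 and 6, and 4 and 1. A fold of 3 gave 6 and 1, and 0 anterior positions. At 10 to 400 kb anterior limb had 0 positions. With the lower quantile the folds in introns 2 and 3 turned to 0.984, the ratio of repeated levels. The share raised beyond 400 kb upstream was 14.9% and 0.826% in 20 kb windows, and 12.5% and 3.91% at 3 times the median, for posterior and anterior limb. The alternatives for this share, and the upper quantile with the other offset, were chosen after seeing the data. The cause of these shifts was not tested. Among counts, bin ratios and limb shares 48 stayed within 1.5 times of the main value and 33 moved further. For bin ratios a change of direction was not labelled in this count. The main ratio within 10 kb, 1.08, was 0.936 in 20 kb windows, 0.891 with the upper and 0.901 with the lower quantile. The main ratio beyond 400 kb, 0.988, was 1.02 in 2 kb windows, 1.28 with the upper and 1.23 with the lower quantile. Among the interval folds and the telencephalon share 14 stayed, 14 moved and 2 turned. Unknown depth limits every value.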
